A study of Mus musculus with 24 samples.

Results

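The 10 interferon-inducible TRIM genes described here are *Trim21*, *Trim30a*, *Trim30b*, *Trim30c*, *Trim30d*, *Trim12a*, *Trim12c*, *Trim34a*, *Trim14* and *Trim26*, which were picked by gene symbol from the 54532 genes of each sample's count table. They were followed by RNA-Seq in 4 tissues (heart, stomach, muscle and tongue) from mice lacking *Trex1*, the exonuclease that clears DNA from the cytosol. Each tissue had 3 control samples and 3 samples from mice given SN-011, an antagonist of the DNA-signalling adaptor STING, which makes 24 samples in 8 groups. Control and SN-011 mice alike were *Trex1* knockouts, and no wild-type tissue was analysed here, so the levels below are those of knockout mice with and without the antagonist. By the sample labels, SN-011 was given at 5 mg/kg on 3 days a week over 4 weeks and the controls were left untreated. The study's methods give 10 mg/kg a day by intraperitoneal injection for 2 weeks, starting at 1 month of age, with vehicle for the controls. The methods put the mice on the C57BL/6J background, and sex is not given in the sources used here.

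TRIM proteins share a RING domain that attaches ubiquitin, a B-box and a coiled coil, and many also carry a PRYSPRY domain that recognises the target. Type I interferon switches a subset of them on through transcription factors such as STAT2 and IRF9, which bind a DNA element called the ISRE near the start of the gene. The products then act both as effectors, when they bind antibody-coated or capsid targets in the cytosol, and as regulators that mark signalling proteins of the same response with ubiquitin. In *Trex1*-deficient tissue, undegraded DNA engages cGAS and STING and drives interferon, which is the setting in which a STING antagonist was compared with the control.

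The promoter sequences are shown first because the letters of the ISRE are shared by most of these genes. RefSeq promoter windows, from 250 bases before to 50 bases after the start of transcription (GRCm38.p6), were matched for 9 of the 10 genes, with 2 windows for *Trim30a*, and *Trim14* had no entry. The motif searched was GAAA, any 2 bases and GAAA again, on both strands. It was present in 7 of the 9 genes, against 3.44% of 32851 promoter windows of the same length. *Trim30b* and *Trim30c* had none of these letters in their windows. The *Trim30b* window and the second *Trim30a* window lie inside the genes as counted, where RefSeq places a start, so for *Trim30b* the start of the longest transcript was not searched. Each line below gives 30 bases, 5′ to 3′ on the strand of the gene, around a match, with the matched letters in capitals (TTTC, any 2 bases and TTTC is the same motif read on the other strand).
Trim21: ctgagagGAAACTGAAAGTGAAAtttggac
Trim30a, first window: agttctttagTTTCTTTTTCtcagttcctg
Trim30a, second window: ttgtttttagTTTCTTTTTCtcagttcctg
Trim30d: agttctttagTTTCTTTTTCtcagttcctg
Trim12a: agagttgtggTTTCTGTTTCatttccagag
Trim12c: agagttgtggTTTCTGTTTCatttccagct
Trim34a: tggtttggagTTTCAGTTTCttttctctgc
Trim26: cttccgaTTTCACTTTCCTTTTCtcgggcc

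The *Trim21* stretch lies on the minus strand at chr7:102565447-102565476 and holds a pair of overlapping matches that begin 14 and 20 bases into the transcript. The stretches of *Trim30a* (chr7:104465210-104465239, minus strand) and *Trim30d* (chr7:104507871-104507900, minus strand) differed at 0 of 30 bases, and the match began at −36 in *Trim30a* and at −41 in *Trim30d*, where −1 is the base before the start. *Trim12a* (chr7:104315466-104315495, minus strand, match at 11) and *Trim12c* (chr7:104353359-104353388, minus strand, match at −29) differed at 2 of 30 bases. The second *Trim30a* window (chr7:104446104-104446133, minus strand, match at 3) differed from the first at 4 bases. *Trim34a* (chr7:104244457-104244486, plus strand) had its match at 11, and *Trim26* (chr17:36836979-36837008, plus strand) had a pair of overlapping matches that begin at −160 and −154. A second motif of interferon signalling, the GAS (TTCNNNGAA), was found in *Trim30c* alone of the 9 genes, at −62, and in 8.30% of all windows. A match of letters is a description of the sequence and does not show that a factor binds there.

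**Figure D1:**
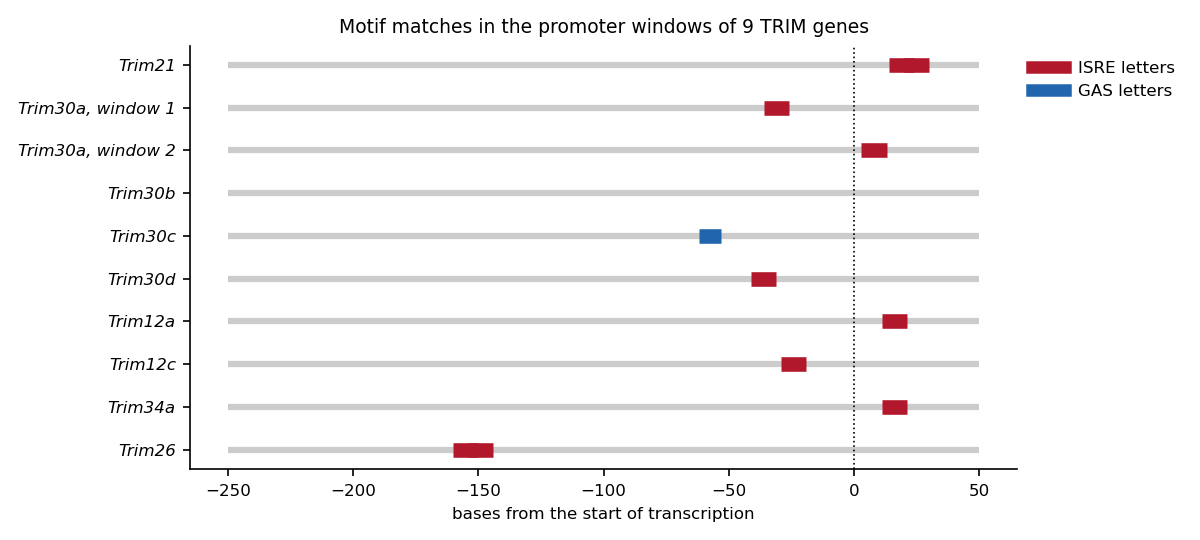
Matches of the ISRE (red, GAAA, any 2 bases and GAAA on either strand) and the GAS (blue, TTCNNNGAA) in the promoter windows of 9 TRIM genes (grey lines), by distance in bases from the start of transcription. In 6 of the 7 genes with ISRE letters a match lies between −41 and 20, and in *Trim26* the pair lies at −160 and −154.

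Of the 10 genes, 8 lie on chromosome 7 of GRCm38, *Trim14* lies on chromosome 4 and *Trim26* on chromosome 17. Close relatives can share reads, so the share of 150-base exon windows found identically in another gene was counted. It was 0% for *Trim21*, *Trim30b*, *Trim30c* and *Trim26*, 3.24% for *Trim30a* and 3.23% for *Trim30d* (with each other), 0.382% for *Trim12a* and 2.54% for *Trim12c* (both with *Trim5*). It reached 24.3% for *Trim34a* (*Gm47248* and *Trim34b*) and 26.9% for *Trim14* (*Nans* and *Gm16731*), which also overlap genes on the opposite strand over 23.5% and 38.0% of their exon bases. How the counting treated strand is not given in the sources used here, so the values of *Trim34a* and *Trim14* are less certain than the others.

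Samples held 14253416 to 18443329 counts in genes, so that 3 counts, the smallest amount taken as detectable, were 0.151 to 0.245 CPM (counts scaled to library size and between samples by TMM). This floor covers counting error alone. Muscle SN-011 replicate 2 stood apart, with counts on 11546 genes against at least 19798 in every other sample. Control replicate 1 differed in sex from the rest in all tissues, with *Xist*, from the X chromosome, at 3060 to 13811 counts and *Ddx3y*, from the Y chromosome, at 0 to 3, against 0 to 20 and 825 to 1898 elsewhere. *Trex1* itself had 0 counts in all 24 samples, but its exons overlap a neighbouring gene, so this is no check of the genotype. Markers of heart muscle, skeletal muscle, stomach glands and squamous epithelium were highest in the tissues whose labels call for them. The study describes its groups as mice, but the labels do not tie samples to single mice, and p-values measure the spread between these samples.

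The first question was whether the TRIM genes were lower in tissue of mice given SN-011. *Trim21* fell in the heart, and the other 9 genes passed the test in no tissue. The test was edgeR's quasi-likelihood test, with p-values adjusted by Benjamini-Hochberg over every gene of the tissue. In the heart, 1 of 10 genes was lower at an adjusted p under 0.05 (background: 0.328% of 16151 genes tested). Elsewhere 0 of 9 tested genes were lower, with backgrounds of 0% (stomach), 0.00704% (muscle) and 0% (tongue). None was higher. At an unadjusted p under 0.05, the genes lower were 4 (heart, background 11.6%), 2 (stomach, 11.4%), 1 (muscle, 5.8%) and 4 (tongue, 7.33%). *Trim30c* was too low to be tested outside the heart.

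Most of the fold changes that did not pass the test also lay below 0. Heart samples gave a negative log2 fold change for 8 of 10 genes, where 51.4% of all genes were negative. It was negative for all 9 tested genes of each other tissue, with backgrounds of 49.8% (stomach), 55.5% (muscle) and 51.5% (tongue). The median log2 fold change over the tested TRIM genes was −0.50 (heart), −0.55 (stomach), −0.53 (muscle) and −0.77 (tongue), beside medians over all genes of −0.01, 0.00, −0.08 and −0.01. The SN-011 samples lay wholly below the control samples for 3 genes (heart, background 13.1%), 2 (stomach, 15.2%), 4 (muscle, 19.8%) and 7 (tongue, 8.38%) of the 10. These backgrounds are of tested genes. In the tongue 1 of the 7 was *Trim30c*, which was not tested there, so 6 of the 9 tested genes were separate. For a gene with groups so separated, the exact two-sided permutation p is 0.1, the smallest that 3 samples against 3 can give. The genes share samples and in part a locus, so these counts are descriptions of the list.

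**Figure D2:**
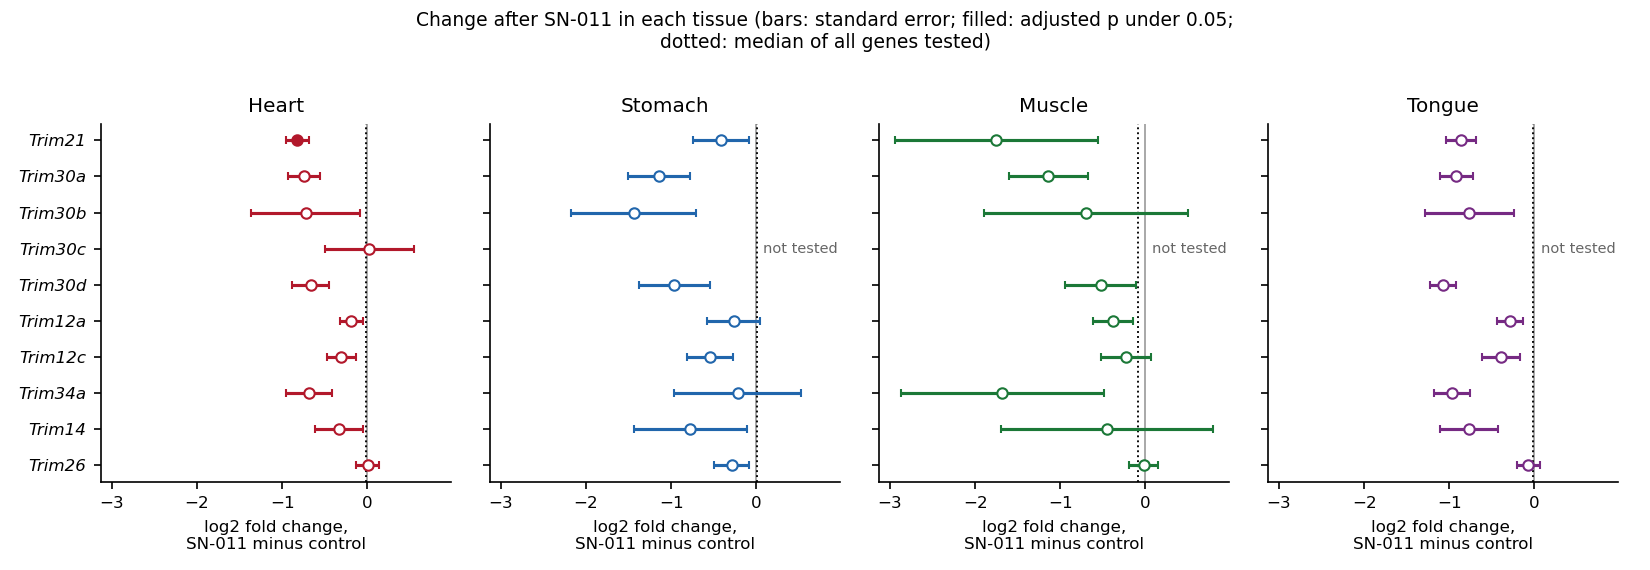
Log2 fold change of each TRIM gene, SN-011 minus control, in the 4 tissues, with the standard error as the bar and the median of all genes tested as the dotted line. *Trim21* in the heart, at −0.82, is the single filled point (adjusted p under 0.05), and the fold changes lie at or below 0.03 in every tissue.

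*Trim21*, also known as Ro52, is a cytosolic antibody receptor and ubiquitin ligase that takes antibody-coated virus to the proteasome, and it is an autoantigen in lupus and Sjögren syndrome. In the heart it was at 41.9, 39.8 and 51.4 CPM in the control samples and at 26.3, 23.3 and 25.7 CPM in the SN-011 samples, with no overlap. It fell by 43.5%, from a mean of 44.4 ± 6.16 to 25.1 ± 1.60 CPM (SD, n = 3), a log2 fold change of −0.82 (SE 0.13, adjusted p = 0.0356 by edgeR's quasi-likelihood test). This call rests on single samples, since the adjusted p was 0.0769 without control replicate 3 and 0.163, 0.198 and 0.0996 without SN-011 replicate 1, 2 or 3, with fold changes of −0.71 to −0.86.

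In the tongue, *Trim21* read 33.7, 50.6 and 46.5 CPM in control samples and 25.1, 23.4 and 23.5 CPM in SN-011 samples, again without overlap. Its log2 fold change there was −0.86 (SE 0.18), of the size seen in the heart, with an adjusted p of 0.263 by the same edgeR test. The stomach values overlapped, at 14.8 to 32.3 CPM against 17.4, 17.5 and 22.7 CPM, where the lowest value of all belonged to control replicate 1. In the muscle, *Trim21* was at 6.17, 8.04 and 9.08 CPM in control samples and at 3.18, 0 and 3.69 CPM in SN-011 samples. The 0 belongs to the muscle sample with few detected genes. The log2 fold change without this sample was −1.17 (adjusted p = 0.0391, edgeR) in place of −1.75 (adjusted p = 0.559).

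*Trim30a* restrains inflammatory signalling below the Toll-like receptors and was the most abundant of the 10 genes per length in the control samples of 3 tissues. It is the gene of the list for which SN-011 samples lay below control samples in all 4 tissues. The share of all genes separated in all 4 tissues was not counted. The heart values were 139, 144 and 213 CPM in control samples and 95.0, 87.5 and 114 CPM after SN-011, a log2 fold change of −0.74 (SE 0.18, adjusted p = 0.0863, edgeR). In the tongue they were 93.2, 146 and 127 CPM against 57.8, 61.6 and 74.9 CPM (log2 fold change −0.92, SE 0.19, adjusted p = 0.263, edgeR). In the stomach *Trim30a* was at 64.6, 129 and 168 CPM in control samples and at 60.6, 41.0 and 62.2 CPM in SN-011 samples. The groups were separated there by a small margin, between control replicate 1 and SN-011 replicate 3, at a log2 fold change of −1.14 (SE 0.37, adjusted p = 0.121, edgeR). In the muscle the values were 21.2, 21.9 and 28.7 CPM against 13.2, 4.08 and 15.1 CPM, with the lowest in replicate 2.

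*Trim30d*, the neighbour of *Trim30a* with the identical ISRE stretch, was clearest in the tongue. Its values were 23.9, 30.3 and 25.7 CPM in control tongues and 12.5, 12.5 and 13.0 CPM in SN-011 tongues. The log2 fold change was −1.07 (SE 0.15) with an unadjusted p of 0.000147 and an adjusted p of 0.221 by edgeR, the smallest adjusted p of the 9 TRIM genes tested in that tissue. In the heart, 55.0, 74.0 and 102 CPM stood against 49.8, 39.5 and 56.4 CPM, so that the groups overlapped by the lowest control and the highest SN-011 value. In the stomach, 31.5, 74.5 and 99.3 CPM stood against 30.5, 27.4 and 47.6 CPM, an overlap that comes from control replicate 1. In the muscle, *Trim30d* was not low in SN-011 replicate 2, which had 8.48 CPM beside 3.83 and 4.54 CPM in the other SN-011 samples and 5.81 to 9.28 CPM in controls.

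*Trim30b* and *Trim30c*, the other members of this family, were scarce. *Trim30b* ranged from 1.59 to 17.0 CPM over the control samples of heart, stomach and tongue and from 1.52 to 8.22 CPM over their SN-011 samples, with overlap in each of the 3 tissues. Its spread was wide, as in the heart, where a single control sample had 16.3 CPM and the others 4.14 and 3.04 CPM. In the muscle it was at 1.00, 1.08 and 1.01 CPM in controls and at 0.91, 0 and 0.96 CPM after SN-011, counts of at most 20 a sample. *Trim30c* was at 0.34, 1.75 and 1.44 CPM in control tongues and at 0.12, 0.13 and 0.19 CPM in SN-011 tongues. The SN-011 values correspond to 2 or 3 counts a sample and lie at the detection floor. In the heart, *Trim30c* was at 0.60, 0.90 and 2.19 CPM against 1.34, 0.92 and 1.51 CPM (log2 fold change 0.03, SE 0.52), and it was between 0 and 0.82 CPM in every stomach and muscle sample.

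**Figure D3:**
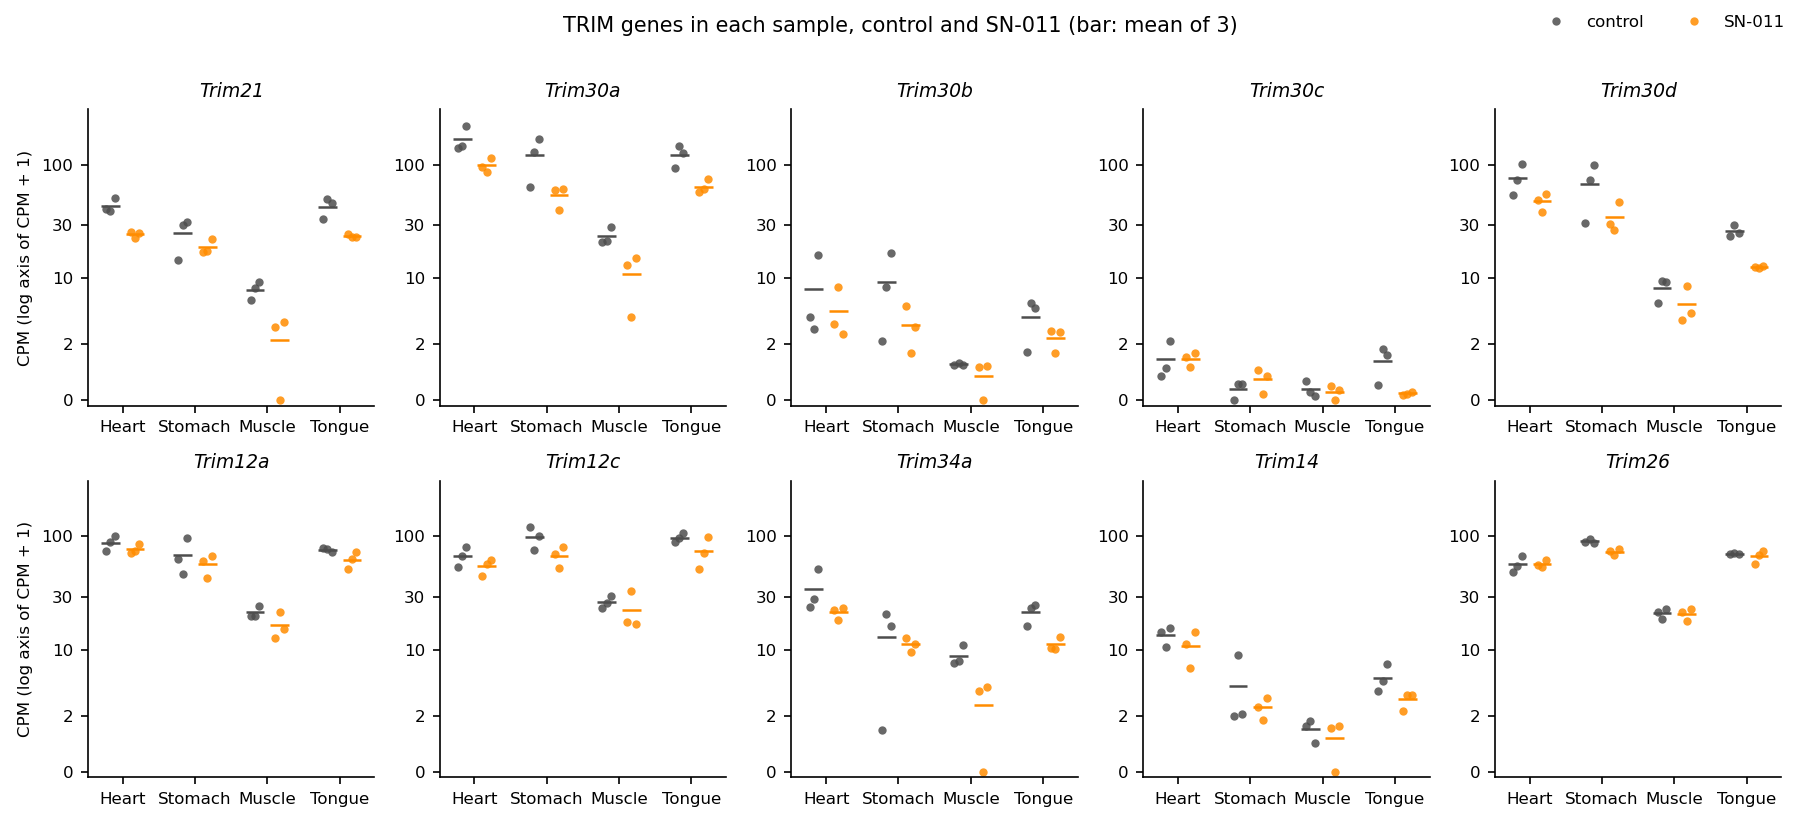
CPM of each TRIM gene in each of the 24 samples (points; grey control, orange SN-011) with the mean of 3 samples as a bar, on a log axis of CPM + 1. *Trim21*, *Trim30a*, *Trim30d* and *Trim34a* show SN-011 samples below control samples in the tongue, and the points at 0 in the muscle belong to SN-011 replicate 2.

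*Trim12a* and *Trim12c* come from the mouse counterpart of the *TRIM5* locus, whose product binds retroviral capsids. Neither passed the test in any tissue. *Trim12a* was at 79.6, 77.2 and 73.8 CPM in control tongues and at 52.2, 63.5 and 73.2 CPM in SN-011 tongues, separated by a margin smaller than the spread within either group (log2 fold change −0.29, SE 0.15, adjusted p = 0.452, edgeR). In the other 3 tissues the groups overlapped, with log2 fold changes of −0.19 (heart), −0.27 (stomach) and −0.38 (muscle). *Trim12c* overlapped in all 4 tissues, with log2 fold changes of −0.30 (heart), −0.55 (stomach), −0.23 (muscle) and −0.39 (tongue). In muscle SN-011 replicate 2, *Trim12c* had 33.9 CPM, above the 30.2 CPM of the highest control, while the other SN-011 samples lay below the lowest control (23.7 CPM).

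*Trim34a* is a relative of *Trim5* on the opposite strand of the same cluster. In the tongue it was at 16.6, 23.7 and 25.4 CPM in control samples and at 10.1 to 13.1 CPM in SN-011 samples (log2 fold change −0.97, SE 0.21, adjusted p = 0.263, edgeR). In the heart, control samples had 24.2, 28.7 and 52.1 CPM and SN-011 samples 22.9, 18.5 and 24.1 CPM, so that control replicate 1 and SN-011 replicate 3 nearly met. The stomach controls differed among themselves, with 1.29 CPM in replicate 1 against 21.1 and 16.5 CPM, and the SN-011 samples lay between them at 9.56 to 12.8 CPM. In the muscle, *Trim34a* was at 7.44, 7.81 and 11.05 CPM in controls and at 3.89, 0 and 4.25 CPM after SN-011.

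*Trim14*, which lacks the RING domain and works as an adaptor in the mitochondrial antiviral complex, and *Trim26*, a ubiquitin ligase encoded in the major histocompatibility region, lie outside the cluster. *Trim14* was at 3.86, 4.92 and 7.31 CPM in control tongues and at 2.33, 3.56 and 3.55 CPM in SN-011 tongues (log2 fold change −0.77, SE 0.34, adjusted p = 0.413, edgeR), and its groups overlapped in the other tissues. *Trim26* had the fold change closest to 0 among the tested genes of the list in the heart, muscle and tongue. It was at 49.6, 55.7 and 68.5 CPM in control hearts against 56.9, 54.4 and 62.9 CPM in SN-011 hearts, with log2 fold changes of 0.00 (heart, SE 0.14), −0.02 (muscle, SE 0.17) and −0.07 (tongue, SE 0.13). In the stomach, 90.3, 94.3 and 87.1 CPM stood above 74.2, 69.7 and 78.4 CPM without overlap, at a log2 fold change of −0.29 (SE 0.21, adjusted p = 0.419, edgeR).

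The samples that stand apart bear on these counts. Without muscle SN-011 replicate 2, 4 TRIM genes passed the threshold in the muscle (*Trim21*, *Trim30a*, *Trim12c* and *Trim34a*), where 3.8% of all genes then passed as lower. Without tongue control replicate 1, 5 passed in the tongue (*Trim21*, *Trim30a*, *Trim30c*, *Trim30d* and *Trim34a*), where 8.04% of all genes then passed as lower. Without control replicate 1 of the heart, stomach or muscle, the counts were 1, 0 and 0 as before. A group of 2 was assumed in these fits to vary like the group of 3 beside it.

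Sums of cell markers were also compared between control and SN-011 samples, and some were wholly separate while others overlapped. The 5 stomach gland markers *Atp4a*, *Atp4b*, *Gkn1*, *Muc5ac* and *Tff1* summed to 8.98 to 767 CPM in control hearts and 2.28 to 20.3 CPM in SN-011 hearts. These heart groups overlapped. The sums were 22.6 to 260 against 0 to 11.3 CPM (muscle) and 33.6 to 958 against 6.45 to 13.9 CPM (tongue). None of them was at 0 in every sample of a group, and in the stomach itself they summed to 14871 to 56241 CPM in control and 4405 to 18377 CPM in SN-011 samples. The 5 leukocyte markers summed to 612 to 1123 against 552 to 757 CPM (heart), 303 to 423 against 178 to 429 CPM (stomach), 108 to 134 against 113 to 133 CPM (muscle) and 346 to 536 against 363 to 495 CPM (tongue). The 5 T cell markers summed to 86.0 to 168 against 74.0 to 121 CPM (heart), 40.2 to 51.9 against 17.1 to 46.0 CPM (stomach) and 53.3 to 93.0 against 43.3 to 71.2 CPM (tongue). The sum of the 6 macrophage markers overlapped in the heart (1310 to 1691 against 1182 to 1771 CPM) and the stomach (245 to 506 against 253 to 594 CPM). It also overlapped in the tongue (545 to 1380 against 767 to 1007 CPM), and in the muscle it was wholly higher after SN-011 (284 to 339 against 383 to 421 CPM). The muscle rise was mostly that of *C1qa* (mean 141 against 179 CPM) and *C1qb* (95.0 against 139 CPM). There 2 of the 6 had negative log2 fold changes, *Adgre1* (15.8 against 8.25 CPM) and *Mrc1* (22.3 against 20.8 CPM). The 4 endothelial markers were wholly lower in the muscle (188 to 233 against 132 to 164 CPM) and overlapped elsewhere, and the 4 B cell markers overlapped in all 4 tissues. The 4 squamous epithelium markers were wholly higher after SN-011 in the stomach (106 to 232 against 438 to 1446 CPM), beside the stomach fold changes given above. The sum of the 4 skeletal muscle markers was wholly higher after SN-011 in the heart (373 to 576 against 596 to 644 CPM) and the muscle (80844 to 91962 against 101289 to 110805 CPM), as was that of the 4 heart muscle markers in the muscle (18.1 to 111 against 134 to 234 CPM). In the heart the skeletal sum was almost all *Ckm* (mean 462 against 614 CPM). There *Actn3* was at 0.756 against 0.478 CPM, *Tnnt3* at 2.71 against 3.47 CPM and *Myh4* below the floor. In the muscle the heart muscle sum was mostly *Myl2* (mean 74.8 against 170 CPM). Of the others, *Myh6* and *Nppa* had higher means after SN-011 and *Myl7* a lower mean. The part of these differences in the TRIM values was not tested, and in bulk tissue fewer cells of a type and less RNA per cell cannot be told apart.

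The interferon pathway upstream of the TRIM genes was read from 15 genes of DNA sensing, interferon receptors and their transcription factors. None passed an adjusted p under 0.05 by edgeR in any tissue. At an unadjusted p under 0.05, 5 were lower and 0 higher (heart), 1 and 3 (stomach), 3 and 0 (muscle), and 5 and 1 (tongue), with medians of −0.18, −0.03, −0.51 and −0.18 on the log2 scale. Over all genes, 11.6% (heart), 11.4% (stomach), 5.8% (muscle) and 7.33% (tongue) were lower at that threshold, and the share higher was not counted. *Stat2*, which carries the signal of the type I interferon receptor to the nucleus, was at a mean of 216 ± 31.9 CPM in control hearts and 161 ± 40.3 CPM in SN-011 hearts, and in the tongue at 299 ± 16.6 against 210 ± 13.3 CPM (SD, n = 3). The *Stat2* means were 264 against 211 CPM in the stomach, where the groups overlapped. In the muscle they were 36.7 against 20.4 CPM, without overlap. *Irf9*, which binds the ISRE together with *Stat2*, was at 107 ± 19.0 against 106 ± 18.3 CPM in the heart. Its means were 111 against 103 CPM (stomach) and 160 against 128 CPM (tongue), with overlap in both. In the muscle *Irf9* was at a mean of 29.8 against 17.8 CPM, without overlap. *Irf7*, a factor that amplifies interferon, was at 1302 ± 68.1 against 1301 ± 225 CPM in the heart and at 714 ± 61.0 against 535 ± 74.7 CPM in the tongue. In the stomach *Irf7* was at 543 ± 73.2 against 340 ± 94.5 CPM, and in the muscle at 164 ± 32.0 against 110 ± 19.1 CPM. The muscle means include SN-011 replicate 2.

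Among the 9 genes whose products work with TRIM21 or are its antigen partners, from the ubiquitin-conjugating enzyme *Ube2n* to the segregase *Vcp* and the Ro60 gene *Trove2*, 0 passed the adjusted threshold in any tissue by edgeR, and an unadjusted p under 0.05 was reached by 1 lower gene each in heart, stomach and muscle and by 2 higher genes in muscle. The shares of all genes lower at that threshold were 11.6% (heart), 11.4% (stomach) and 5.8% (muscle). Of the 59 other genes with a *Trim* symbol, 41 (heart), 41 (stomach), 36 (muscle) and 38 (tongue) were tested, and their median log2 fold changes were −0.01, 0.06, −0.51 and −0.02. A median below −0.5 was thus present in the muscle among the other *Trim* genes too. The single one to pass was *Trim63* (MuRF1), the ubiquitin ligase of muscle protein breakdown, which rose in the heart from 123 ± 31.6 to 304 ± 46.4 CPM (log2 fold change 1.31, SE 0.20, adjusted p = 0.0281, edgeR). Its SN-011 samples were above its control samples in all 4 tissues, with adjusted p-values of 0.258 (muscle) and 0.268 (tongue). How many of all genes were so separated was not counted. In the stomach *Trim63* was at 0.35 ± 0.61 against 1.75 ± 0.66 CPM (adjusted p = 0.301, edgeR), with the controls near the floor.

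The change after SN-011 was compared between tissues in a joint fit of all 24 samples, which were treated as independent. Of the 60 differences (10 genes, 6 pairs of tissues), 0 passed an adjusted p under 0.05 by edgeR, where the background was 2.01% (heart and stomach), 0.00507% (heart and muscle), 0% (heart and tongue), 6.95% (stomach and muscle), 0.821% (stomach and tongue) and 0.0355% (muscle and tongue). At an unadjusted p under 0.05 there were 2, both of *Trim30c*, whose change differed between stomach and tongue by 3.92 on the log2 scale (SE 1.36, adjusted p = 0.159) and between heart and tongue by 2.97 (SE 1.29). *Trim30c* is the gene with values at the floor in the tongue. The joint fit includes muscle SN-011 replicate 2, and its errors were wide for some genes. For *Trim21*, the difference between heart and tongue had an SE of 0.74, beside 0.13 (heart) and 0.18 (tongue) in the separate fits. A difference that does not pass the test does not show that the tissues responded alike.

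The second question was how the level of these genes differed between tissues. Levels were compared in the 12 control samples, scaled together by TMM and divided by exon length (CPM per kb), so that they can also be set against each other between genes. *Trim30a* was highest of the list in the heart (36.2 ± 9.55 CPM per kb), stomach (23.7 ± 9.79) and tongue (25.0 ± 5.62, SD, n = 3), and *Trim12c* was highest in the muscle (12.1 ± 1.67). *Trim30b*, *Trim30c* and *Trim14* were the lowest 3 in every tissue, at 0.117 to 2.83 CPM per kb. The muscle had the lowest mean level for 8 of the 10 genes.

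**Figure D4:**
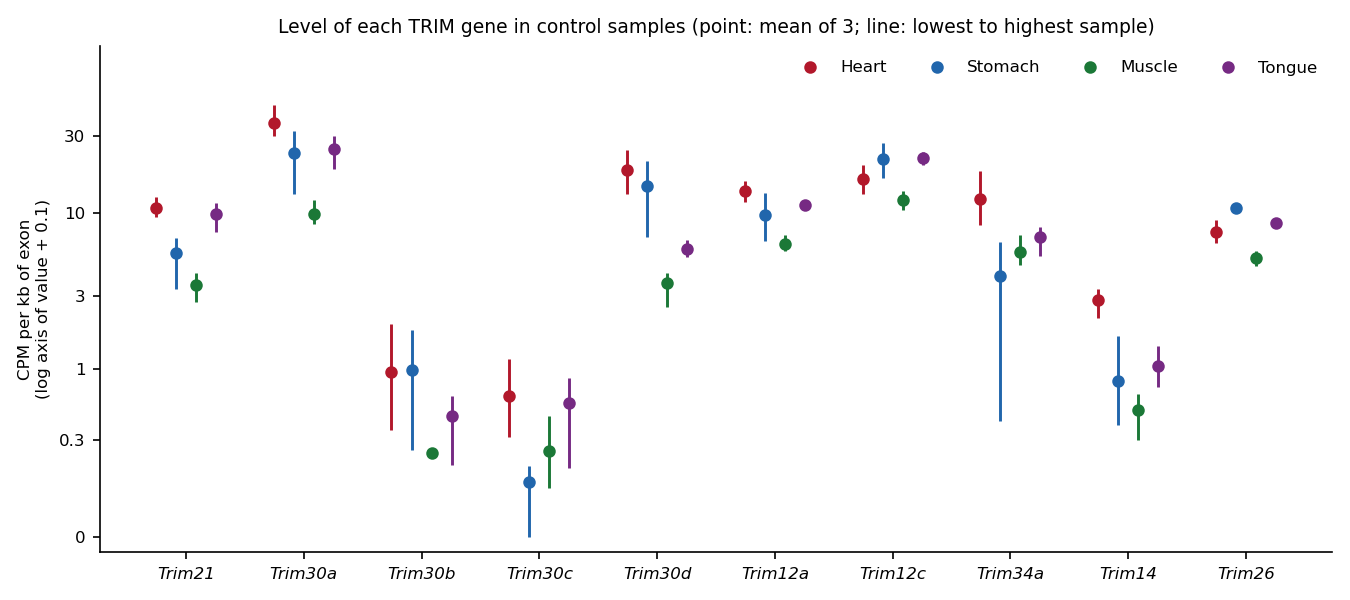
Level of each TRIM gene in control samples of the 4 tissues, as CPM per kb of exon on a log axis of the value + 0.1, with the mean of 3 samples as a point and the lowest to the highest sample as a line. Muscle lies lowest except for *Trim30c* and *Trim34a*, and *Trim30d* shows heart and stomach above tongue and muscle.

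Of the 60 differences in level between tissues, 23 passed an adjusted p under 0.05 by edgeR's quasi-likelihood test. They were 6 of 10 between heart and muscle (38.9% of all genes passed), 6 between stomach and muscle (56.7%), 5 between muscle and tongue (43.3%), 3 between heart and stomach (46.7%), 2 between stomach and tongue (40.6%) and 1 between heart and tongue (32.3%). In all 17 that involved the muscle, the muscle was the lower tissue. The median difference of the 10 genes was 1.5 between heart and muscle, 0.76 between stomach and muscle and −0.93 between muscle and tongue on the log2 scale, beside 0.08, 0.04 and −0.02 over all genes. These values depend on the scaling, since with library size alone the median over all genes moved to 0.94 between heart and muscle and to 0.89 between stomach and muscle.

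*Trim21* was highest in the heart (10.7 ± 1.63 CPM per kb) and tongue (9.87 ± 2.02), which did not differ beyond their spread (adjusted p = 0.770, edgeR). The stomach (5.6 ± 1.97) was lower than the tongue (log2 difference −0.81, SE 0.28, adjusted p = 0.0370), and the muscle (3.53 ± 0.73) did not pass the test against the stomach (adjusted p = 0.0649). *Trim30a* followed the order heart, tongue, stomach and muscle, in which the step from stomach to muscle passed the test (log2 difference 1.27, SE 0.32, adjusted p = 0.00542). *Trim30d* had another order, with heart (18.4 ± 5.86) and stomach (14.7 ± 7.13) above tongue (5.96 ± 0.77) and muscle (3.63 ± 0.94). Its steps within each of these pairs did not pass, and the step from stomach to tongue did (log2 difference 1.31, SE 0.37, adjusted p = 0.0139). The same difference, stomach minus tongue, was −0.08 (SE 0.32, adjusted p = 0.876) for *Trim30a*, and whether the genes differ in this step was not tested.

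*Trim12a* was at 13.8 ± 2.03 CPM per kb (heart), 11.2 ± 0.41 (tongue), 9.76 ± 3.33 (stomach) and 6.37 ± 0.83 (muscle), and of these steps the last passed (adjusted p = 0.0383, edgeR). *Trim12c* was at 21.9 ± 1.92 in the tongue, 21.8 ± 5.28 in the stomach, 16.4 ± 3.32 in the heart and 12.1 ± 1.67 in the muscle. No neighbouring step of that order passed, while stomach and tongue each differed from muscle (adjusted p = 0.00566 and 0.00736). *Trim26* was highest in the stomach (10.8 ± 0.53), followed by tongue (8.68 ± 0.13), heart (7.58 ± 1.34) and muscle (5.26 ± 0.57), and the step from heart to muscle passed (adjusted p = 0.0225).

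*Trim14* was at 2.83 ± 0.59 CPM per kb in the heart, above the stomach (0.815 ± 0.73, log2 difference 1.79, SE 0.55, adjusted p = 0.0187, edgeR) and the muscle (0.508 ± 0.19, adjusted p = 0.00529), with the tongue between them at 1.04 ± 0.34. *Trim34a* had 12.2 ± 5.37 in the heart, 7.10 ± 1.53 in the tongue, 5.72 ± 1.39 in the muscle and 4.03 ± 3.22 in the stomach, and no pair passed the test. Its order of muscle above stomach was a log2 difference of −0.50 (stomach minus muscle). The median of that pair over all genes moved further, from 0.04 to 0.89, with library size alone. *Trim30b* was at 0.941 ± 0.90 (heart), 0.975 ± 0.79 (stomach), 0.462 ± 0.25 (tongue) and 0.231 ± 0.01 (muscle), where stomach and muscle differed (adjusted p = 0.0433). *Trim30c* was at 0.647 ± 0.45 in the heart, 0.576 ± 0.36 in the tongue, 0.242 ± 0.19 in the muscle and 0.117 ± 0.10 in the stomach, with no pair past the test.

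Added over the 10 genes and scaled within each tissue, the level was 133 ± 32.0 CPM per kb in control hearts and 92.7 ± 10.3 in SN-011 hearts, with samples from 108 to 169 against 84.7 to 104. Stomach samples had 114 ± 27.8 (85.9 to 142) against 72.5 ± 13.3 (58.3 to 84.6), muscle samples 28.1 ± 3.71 (25.1 to 32.2) against 18.3 ± 0.75 (17.4 to 18.8), and tongue samples 109 ± 13.6 (93.7 to 119) against 71.7 ± 11.9 (60.8 to 84.3). The SN-011 samples lay below the control samples in every tissue for this sum, in which *Trim30a* weighs most in the control samples of heart, stomach and tongue.

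Some of the genes also varied together between samples of the same group. After the mean of each group was taken away, the median Pearson correlation over the 45 pairs of the 10 genes was 0.52 in 24 samples and 0.42 without muscle SN-011 replicate 2. *Trim30a* had the highest median with the other 9 genes (0.76, and 0.72 without that sample). *Trim12c* had the lowest (−0.21, and 0.12 without it). *Trim21* and *Trim30d* were at −0.14 with that sample and at 0.89 without it. The samples share depth and library preparation, and pairs of other genes were not measured for comparison, so these correlations are descriptions.

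Among 9332 genes with at least 5 CPM in each tissue, those most like *Trim21* over the 24 samples, after the mean of each tissue was taken away, were *Gbp5* (r = 0.985), *Phf11d* (0.983), *Nlrc5* (0.982), *Sec24d* (0.98) and *Serpinb9* (0.979). This order rests largely on muscle SN-011 replicate 2, in which *Trim21* was at 0. In the other 23 samples *Gbp5* was again the closest (r = 0.926), *Nlrc5* ranked 15, *Sec24d* 18, *Phf11d* 27 and *Serpinb9* 46, and the genes after *Gbp5* were *Irgm2* (0.917), *Parp14* (0.915), *Rps6ka3* (0.909) and *Iigp1* (0.909).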

How the data were processed

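RNA was measured by paired-end polyA+ RNA-Seq in 24 samples. The authors deposited 1 raw read count per gene and sample, without normalization. The labels name HISAT2, HTSeq and mm10 and the study's methods name Trimmomatic, hisat2 and featureCounts, so the counter is uncertain. Of 54532 gene identifiers, 54495 matched GENCODE M21 (GRCm38), used for symbols, positions and exon lengths.

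Samples were grouped by tissue and treatment. Separate fits for the tissues were made in R 4.3.3 with edgeR 4.0.16, using filterByExpr (minimum count 10, total 15), TMM, a prior count of 0.125, the quasi-likelihood test and Benjamini-Hochberg adjustment over all genes, at 0.05. Tissue levels used the 12 control samples, and differences of the change between tissues a joint fit of 24 samples. Single values were compared by exact two-sided permutation over 20 relabellings. CPM beside SN-011 comparisons are TMM-scaled within the tissue. The fits were also run on counts simulated independently for each sample, and no result here rests on that run.

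The genes and lists were chosen with earlier results of these data known. All 10 TRIM genes are named; other *Trim*, pathway and TRIM21 partner genes are named at an adjusted p under 0.05, or else as *Stat2*, *Irf9* and *Irf7* (1 other gene fixed by the rule is not reported here), with the 5 genes most correlated with *Trim21*. Genes of a list named as examples were chosen after their values were seen. Alternatives were other size factors, library size alone, no filter, DESeq2 1.42.0, edgeR's exact test, the joint fit, a replicate block and each sample left out. Kidney was not analysed here.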

Additional observations from a re-analysis of the deposited data

How the results depend on the processing

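Of the 37 fold changes of TRIM genes after SN-011, 28 kept their direction in all 7 other settings and with each sample left out, and the number of genes past the threshold varied more. In the heart, where 1 TRIM gene was lower, 4 were lower with no filter on low counts (3.92% of all genes were then lower, against 0.328%), 3 with DESeq2 (4.07%), 2 with edgeR's exact test (2.82%), 2 with the replicate block (0.718%) and 0 in the joint fit of all tissues (0.00507%), and 0 to 1 with a sample left out. In the stomach the count of 0 became 1 (*Trim30a*) with DESeq2 (6.53%), the exact test (4.12%) or the joint fit (7.18%). With a sample left out it was 0 to 4 for muscle and 0 to 5 for tongue, and for tongue it was 4 with DESeq2 (1.77%) and with the exact test (1.12%). With a sample left out, the median log2 fold change was −0.67 to −0.19 in the heart (−0.19 without control replicate 3) and −1.04 to −0.58 in the tongue. With library size alone, the median of all genes moved to −0.16 in the heart, 0.18 in the stomach and −0.31 in the muscle. The 23 differences in level were 19 to 27 with a sample left out, 28 with DESeq2 and 28 with the replicate block. The cause of these shifts was not tested.

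The sign of 9 fold changes turned in at least 1 setting. *Trim30c* in the heart was −0.13 with library size alone, −0.0016 with no filter and −0.33 to 0.75 with a sample left out. *Trim26* was −0.15, −0.020 and −0.0044 in the heart with library size alone, no filter and the joint fit, 0.0095 in the tongue with library size alone, and with a sample left out −0.12 to 0.13 (heart), −0.11 to 0.075 (muscle) and −0.16 to 0.025 (tongue). *Trim34a* in the stomach was 0.27 with the replicate block and −0.78 to 0.33 with a sample left out. The other ranges with a sample left out were −1.37 to 0.40 for *Trim30b* in the heart, −0.47 to 0.026 for *Trim12a* and −1.15 to 0.29 for *Trim14* in the stomach, and −0.91 to 0.12 for *Trim14* in the muscle.

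The replicate numbers of control and SN-011 samples did not pair them, so the replicate block of the SN-011 comparisons joined samples without a known tie. Same-numbered samples of a tissue correlated at −0.33 to 0.24 in their deviations from the group means, and 6 of 24 samples were closest to their own number. Across tissues, 29 of 36 comparisons of control samples and 24 of 36 of SN-011 samples were closest to their own number, a hint from the data and not the design. Depth limits *Trim30c*, which had 0 to 14 counts in every stomach and muscle sample.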
